A study of Mus musculus with 12 samples.

Results

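The mouse genes named Col followed by a chain number encode the collagens, the structural proteins of the extracellular matrix. All 44 genes whose symbol has this form were taken from 40690 gene identifiers in the count table, 1 entry for each. They comprised 11 fibrillar collagens, 6 type IV collagens of basement membranes and 27 collagens of other types. The RNA came from whole brains of 12 C57BL/6J embryos, dissected at embryonic day 14.5, in 4 groups of 3, and was sequenced after selection of polyadenylated transcripts. LC1 knockouts lacked a conserved non-coding element upstream of Pou3f2, which encodes a POU transcription factor of neurons, and were set against LC1 wild types, with all 6 embryos of this line female. RKI homozygotes carried a human sequence variant knocked into that element on both alleles and were set against RKI wild types. In each of these groups 2 embryos were male and 1 was female, homozygote A10 and wild type A9. Values of 3 embryos are given in the order 7, 22, 71 for LC1 knockouts and 6, 26, 73 for LC1 wild types. For the RKI line the order is A1, A10, A18 for homozygotes and A2, A9, A16 for wild types. Mutants and wild types were matched for sex and litter per the labels, but the litters are not named, and the sources used here do not say from how many founders each line came.

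Collagens are trimers of chains that each carry a long run of glycine repeats. Fibrillar types pack side by side into the fibres of connective tissue, whereas type IV chains join into the sheets on which basement membranes are built. In the embryonic brain the fibrillar types are known mainly from the meninges, the connective tissue that covers the brain. Type IV collagen lies in the basement membrane at the brain surface, to which radial glia attach, and in that around each blood vessel. Mutations of the human genes COL4A1 and COL4A2 cause bleeding and malformation of small brain vessels.

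The libraries held 18192984 to 26566769 counts on genes, and 16002 genes passed the filter on low counts, among them 42 of the 44 collagens. Pou3f2 ranged from 92.8 to 106 CPM, the count scaled to library size, in LC1 knockouts, against 86.7 to 97.8 CPM in LC1 wild types, and no count checks the deletion of the element itself. The deposited tables give no cell types, so the collagens were set beside marker genes of the meninges and vessels. All 13 listed markers of meningeal fibroblasts, all 10 of endothelium and all 9 of pericytes passed the filter in these brains. Pdgfra, a growth factor receptor of mesenchyme, lay between 53.1 and 72.2 CPM, and Cldn5, the tight junction protein of brain endothelium, between 49.5 and 61.6 CPM. Of 6 skin markers 2 passed, Epcam with at most 2.34 CPM and Perp with at most 3.62 CPM. The basal keratins Krt5 and Krt14 reached at most 0.156 and 0.115 CPM. Of 7 cartilage markers 6 were found in the table and only Hapln1 passed, with at most 3.65 CPM. Acan, the main proteoglycan of cartilage, reached at most 0.418 CPM. Which cells the collagen transcripts came from was not measured.

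The fibrillar collagens were led by the chains of types III and I. Levels between genes are given as the deposited RPKM, reads scaled to exon length and library depth. Col3a1, the sole chain of type III collagen, ranged from 39.3 to 55.8 RPKM over the 12 libraries, with a mean of 46.9 RPKM. The type I chains followed, with mean levels of 40.0 RPKM for Col1a1 and 21.6 RPKM for Col1a2. Col2a1, the main fibrillar chain of cartilage, had a mean level of 12.3 RPKM in these libraries, in which most cartilage markers lay below the filter. Col5a2 and Col5a1, the type V chains that set the diameter of type I fibrils, had mean levels of 9.45 and 8.73 RPKM. The third type V chain, Col5a3, stood much lower at 0.149 RPKM. Col11a1, a chain that regulates cartilage fibrils, had 4.11 RPKM on average and its partner Col11a2 0.823 RPKM. The lowest fibrillar genes were Col27a1 at 0.705 RPKM and Col24a1 at 0.120 RPKM.

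The type IV genes lie head to head in pairs, and their levels fell into 3 tiers that matched these pairs. Col4a1 and Col4a2, which encode the chains of the type IV trimer found in nearly every basement membrane, had the highest mean RPKM of all 44 collagens. Col4a1 ranged from 67.2 to 92.3 RPKM with a mean of 78.0 RPKM. Col4a2 ranged from 47.9 to 64.7 RPKM with a mean of 55.8 RPKM. The X-linked pair came next, with Col4a5 at 5.29 RPKM and Col4a6 at 1.86 RPKM on average. Col4a4 and Col4a3, known for the basement membrane of the kidney glomerulus, had 0.205 and 0.0797 RPKM, with 11 to 25 counts per library for Col4a3. The 12 values of Col4a1 all lay above the 12 values of Col4a2, and those of Col4a5 all above those of Col4a6.

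The sequences around the starts of the first pair are shown because they are the stretch these genes share. In RefSeq on build GRCm38.p6 the window from 250 bases before to 50 bases after the Col4a1 start is chr8:11312777-11313076 on the minus strand, and that of Col4a2 is chr8:11312555-11312854 on the plus strand. The annotated starts lie 21 bases apart, and the windows share 78 bases, which are in capitals and read on opposite strands.
Col4a1: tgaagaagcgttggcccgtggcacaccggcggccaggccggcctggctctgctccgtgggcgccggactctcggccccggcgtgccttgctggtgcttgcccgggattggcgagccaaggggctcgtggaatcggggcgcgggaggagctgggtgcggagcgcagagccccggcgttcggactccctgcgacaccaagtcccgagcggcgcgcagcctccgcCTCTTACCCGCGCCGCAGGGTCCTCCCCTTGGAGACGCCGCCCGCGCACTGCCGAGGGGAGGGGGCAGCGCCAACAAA
Col4a2: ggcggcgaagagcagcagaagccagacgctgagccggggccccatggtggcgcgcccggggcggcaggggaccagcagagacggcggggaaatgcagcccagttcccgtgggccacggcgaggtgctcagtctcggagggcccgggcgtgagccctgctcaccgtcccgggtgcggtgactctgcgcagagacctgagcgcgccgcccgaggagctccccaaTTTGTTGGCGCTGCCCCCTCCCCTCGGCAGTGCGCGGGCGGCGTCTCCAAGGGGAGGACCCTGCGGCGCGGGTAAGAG
The X-linked pair is shown for contrast, since its starts lie 1343 bases apart and its windows do not meet. The Col4a6 window is chrX:141474027-141474326 on the minus strand, and the Col4a5 window is chrX:141475169-141475468 on the plus strand. Here capitals mark 3 short motifs searched on both strands, which are TATAAA, known as the TATA box, then CCAAT, known as the CCAAT box, and GGGCGG, known as the GC box.
Col4a6: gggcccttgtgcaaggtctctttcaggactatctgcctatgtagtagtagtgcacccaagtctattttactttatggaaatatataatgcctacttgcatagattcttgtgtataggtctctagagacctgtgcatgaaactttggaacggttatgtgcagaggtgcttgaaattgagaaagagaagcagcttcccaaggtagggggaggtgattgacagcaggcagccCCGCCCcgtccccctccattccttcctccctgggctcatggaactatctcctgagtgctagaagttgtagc
Col4a5: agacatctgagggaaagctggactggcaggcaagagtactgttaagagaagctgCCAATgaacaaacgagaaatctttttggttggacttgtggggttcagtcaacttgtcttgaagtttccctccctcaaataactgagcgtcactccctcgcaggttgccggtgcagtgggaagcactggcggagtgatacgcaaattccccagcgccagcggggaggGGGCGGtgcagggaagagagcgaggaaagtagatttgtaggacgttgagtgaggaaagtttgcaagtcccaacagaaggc
The windows of Col4a1 and Col4a2 were 74.0% and 73.7% G and C, against 48.3% for Col4a6 and 52.7% for Col4a5. The median was 59.8% over 38 collagen windows, which belong to 35 of the 44 genes, and 52.7% over all 32851 windows of the same length. GGGCGG, the core of GC boxes, was present on either strand in all 4 printed windows. The match of Col4a1 lies in the shared bases and is the same site as a Col4a2 match. GGGCGG stood in 60.5% of the collagen windows and 35.7% of all windows, without adjustment for the higher G and C content of collagen windows. CCAAT was present in the windows of Col4a1, Col4a2 and Col4a5, in 34.2% of the collagen windows and in 37.4% of all windows. TATAAA was in none of the 4 windows, in 13.2% of the collagen windows, Col3a1 among them, and in 13.6% of all windows. No matches of different motifs shared bases in the printed windows, and a match describes the letters of a window without showing that any factor bound there.

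Among the other collagens Col18a1, a heparan sulfate proteoglycan of basement membranes whose end fragment is endostatin, was the highest at 18.1 RPKM. Col15a1, the other collagen of this multiplexin type, had 3.65 RPKM. The beaded filament collagen, type VI, was represented by Col6a1 at 11.1 RPKM, Col6a2 at 6.58 RPKM and Col6a3 at 6.19 RPKM. The remaining type VI genes Col6a4, Col6a5 and Col6a6 had between 0.104 and 0.172 RPKM. Col26a1 stood at 7.44 RPKM. Among the 9 collagens that sit on the surface of fibrils, the FACIT group, Col9a3 was highest at 5.25 RPKM, followed by Col9a2 at 3.38 RPKM and Col22a1 at 3.32 RPKM. Col9a1, the partner of both type IX chains in cartilage, had only 0.245 RPKM. Of the transmembrane collagens Col23a1 reached 4.76 RPKM, Col25a1 1.74 RPKM and Col13a1 1.31 RPKM. Col17a1, the collagen of skin hemidesmosomes, and Col10a1, the collagen of hypertrophic cartilage, were the 2 genes under the filter, with at most 12 and 4 counts in a library.

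**Figure D1:**
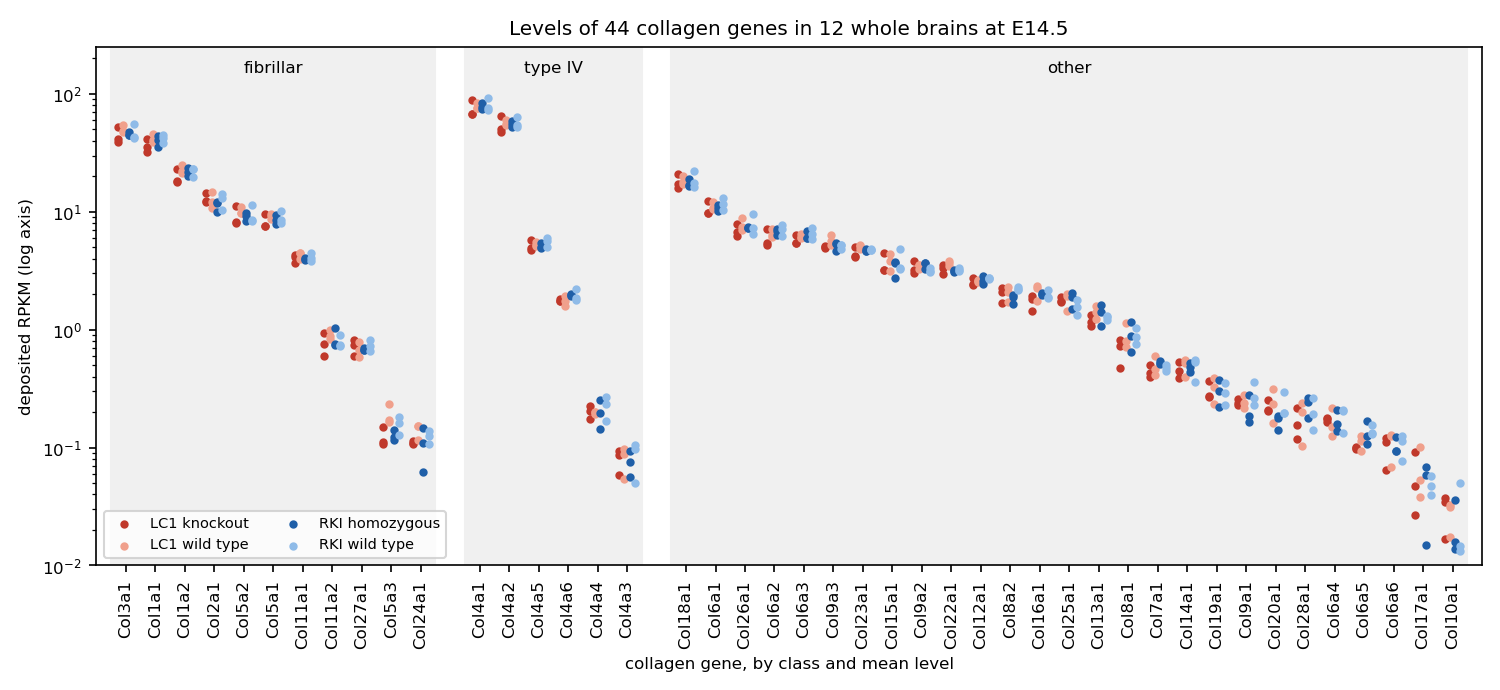
Deposited RPKM on a log axis for 44 collagen genes, ordered by class and mean level, with 1 point for each of 12 libraries coloured by group. Col4a1 and Col4a2 stand highest, Col3a1 and the type I chains lead the fibrillar class, and Col10a1 is lowest at a mean of 0.0261 RPKM.

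Of the summed RPKM of all collagens, fibrillar genes took 38.2% to 42.0% in the 12 libraries and type IV genes 35.7% to 39.8%. Per kilobase of coding transcript, a length chosen after the data were seen, the shares were 45.6% to 49.3% for fibrillar and 28.1% to 32.0% for type IV genes. The order of the leading genes also depended on the length used. For 35 of the 44 genes the length behind the deposited RPKM was within 1% of the union of all exons in GENCODE M21. For Col1a2 the length behind the RPKM was 12.2 kilobases, where the union is 12.4, against 5.35 kilobases for its longest coding transcript. For Col3a1 the RPKM length and the coding transcript were 9.83 and 5.56 kilobases. Per kilobase of coding transcript Col3a1 had 82.8 CPM and ranked first. Col4a1 then had 80.6 CPM per kilobase, Col4a2 57.4, Col1a2 49.2 and Col1a1 44.4. So Col1a2 lay below Col1a1 on one length and above it on the other.

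The chains of the first type IV pair, and likewise those of type I, kept ratios that varied less than their separate levels over the 12 libraries. Col4a1 over Col4a2 in RPKM was 1.38, 1.36 and 1.40 in LC1 knockouts, against 1.37, 1.39 and 1.39 in LC1 wild types. It was 1.40, 1.44 and 1.42 in RKI homozygotes, against 1.40, 1.39 and 1.44 in RKI wild types. The SD of this ratio on the log2 scale was 0.027 over 12 libraries, where Col4a1 alone had an SD of 0.14 and Col4a2 alone also 0.14. The type I ratio of Col1a1 over Col1a2 ran from 1.74 to 1.95 in RPKM. Its log2 SD was 0.051, with 0.16 for each gene. Of 15 pairs computed, 9 had a ratio that varied less than either gene, among them genes that do not form a common trimer. Col3a1 over Col5a2 had a log2 SD of 0.066, against 0.16 and 0.19 for the single genes, and Col3a1 over Col4a1 had 0.096, against 0.16 and 0.14. All pairs share a library and its depth at each point, and the exons of Col4a1 and Col4a2 overlap on opposite strands near their starts, so some of their reads cannot be assigned if strand was not used in counting.

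Not every pair behaved in this way. Col4a5 over Col4a6, the X-linked pair, ran from 2.46 to 3.34 with a log2 SD of 0.15, above the 0.11 of Col4a5 and the 0.12 of Col4a6. Both genes had fewer counts than the first pair, at 584 to 980 per library for Col4a5 and 256 to 411 for Col4a6. Col8a1 over Col8a2, the short-chain collagens known from vessel walls and the cornea, was the most uneven of the 15 pairs, with a log2 SD of 0.38. Col6a1 over Col6a2 had a log2 SD of 0.069 and differed in level between the lines. It was 1.70, 1.80 and 1.85 in LC1 knockouts, against 1.71, 1.74 and 1.70 in LC1 wild types. It was 1.58, 1.61 and 1.58 in RKI homozygotes, against 1.65, 1.64 and 1.69 in RKI wild types. The 3 homozygote values were the lowest of this line and the 2 highest of all 12 came from knockouts 22 and 71. This pair was singled out after its values were seen, and the difference was not tested.

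**Figure D2:**
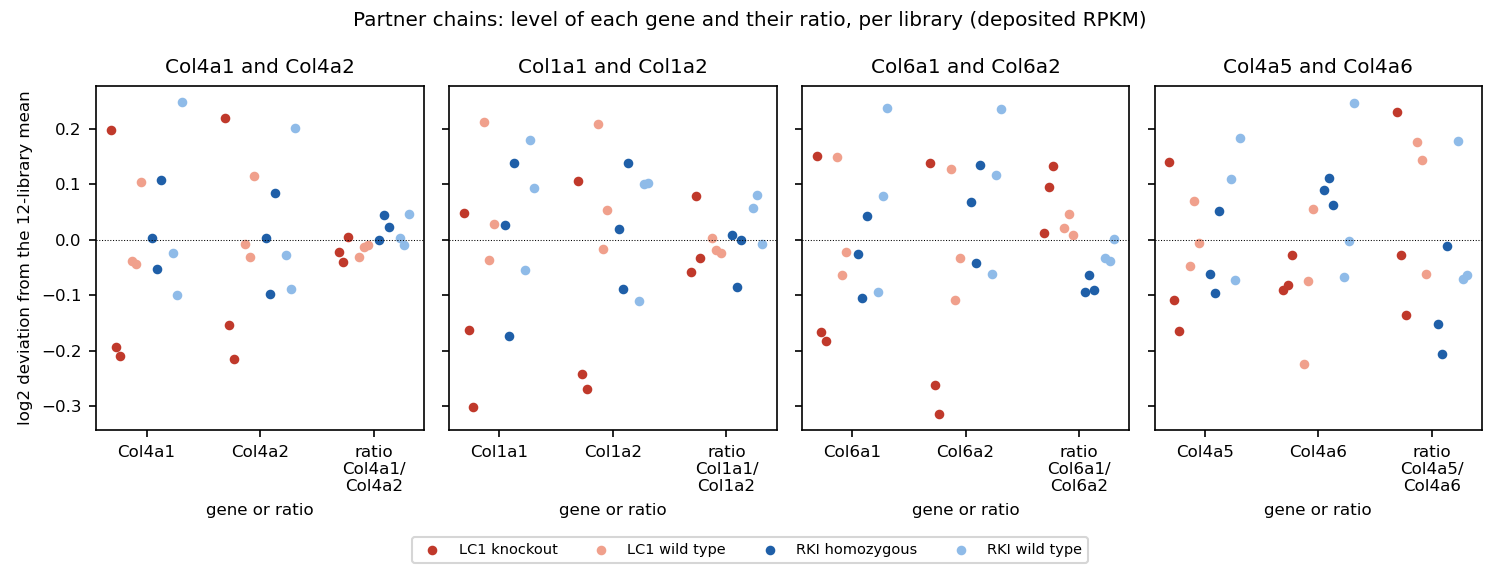
Log2 deviation of deposited RPKM from the mean of 12 libraries for both genes of 4 chain pairs and for their ratio, with 1 point for each library coloured by group. The ratio of Col4a1 to Col4a2 is tighter, with an SD of 0.027, than either gene, whereas that of Col4a5 to Col4a6, with an SD of 0.15, is not.

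Collagens varied more between embryos of a group than most genes did. At a mean count of 500 or more, the median SD of log2 CPM within groups was 0.16 over 19 collagens, against 0.086 over all 7934 such genes. It was 0.16 for fibrillar, 0.16 for type IV and 0.15 for other collagens. The FACIT genes and Col23a1 stood nearer to the typical gene, at 0.09 for the 2 FACIT genes of that count and 0.092 for the single transmembrane gene. This spread sets the width of the intervals given for each comparison.

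The transcript estimates showed 1 dominant form for the first type IV pair and the type I chains, and mixtures for several others. The first listed transcripts Col4a1-001 and Col4a2-001 took 99.2% and 99.9% of the summed transcript RPKM of their genes. Col1a1-001 took 98.1% and Col1a2-001 93.8%. For Col3a1 the coding form Col3a1-001 took 48.3%. Col2a1 was split between Col2a1-001 at 36.0% and Col2a1-002 at 35.5%. For Col11a1 and Col25a1 the largest share went to transcripts annotated as targets of nonsense-mediated decay, Col11a1-003 at 53.1% and Col25a1-004 at 63.4%. The sources used here do not give the tool that divided reads between overlapping forms.

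In brains without the LC1 element, collagen genes mostly had fitted values a little below those of wild types, and none passed the threshold. Of all 16002 genes tested, 0 had an adjusted p under 0.05 in edgeR's quasi-likelihood test, a background of 0.0%, and at an unadjusted p under 0.05 the test found 334 genes. Every collagen had an adjusted p of 1.0 in both genotype comparisons. The fitted log2 fold change was below 0 for 35 of the 42 collagens, where 51.4% of all genes were below 0. Fibrillar genes had a median of -0.18 with 9 of 11 below 0, other types -0.11 with 23 of 25, and type IV genes -0.014 with 3 of 6. The median over all genes was -0.003. All 9 FACIT genes and 5 of the 6 type VI genes were below 0. The differences between these class medians were not tested, and the genes of a class share their libraries.

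The type I and III chains were each lower in 2 of 3 knockouts than in every wild type. Col1a1 had 274, 232 and 212 CPM in LC1 knockouts, against 308, 253 and 264 CPM in LC1 wild types. Col1a2 had 285, 220.2 and 216 CPM in LC1 knockouts, against 307, 257 and 269 CPM in LC1 wild types. Knockouts 22 and 71 lay below every wild type for both genes, and knockout 7 lay within the wild types. The log2 fold change of Col1a1 was -0.20 ± 0.11 (SE), or 0.870-fold, with an interval from 0.740 to 1.02 at 95% confidence. That of Col1a2 was -0.21 ± 0.11 (SE). Col3a1 had 519, 385 and 409.7 CPM in LC1 knockouts, against 541, 466 and 476 CPM in LC1 wild types, a log2 fold change of -0.18 ± 0.11 (SE). The same knockouts, 22 and 71, were below the wild types. Without knockout 7 these log2 fold changes became -0.31 for Col1a1, -0.35 for Col1a2 and -0.32 for Col3a1, and the smallest with 1 library left out were -0.11 and -0.13 without wild type 6 for both type I chains and -0.090 without knockout 22 for Col3a1. Col2a1 had 73.1, 74.2 and 85.8 CPM in LC1 knockouts, against 65.2, 72.6 and 87.5 CPM in LC1 wild types, and the groups overlapped. In whole-brain RNA, fewer cells of a type and less RNA per cell cannot be told apart.

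For the type IV network the LC1 groups overlapped throughout. Col4a1 had 616, 462 and 458 CPM in LC1 knockouts, against 524, 511 and 566 CPM in LC1 wild types. Col4a2 had 435, 329.7 and 317 CPM in LC1 knockouts, against 373, 358 and 396 CPM in LC1 wild types. For both genes knockout 7 was the highest of the 6 libraries and knockouts 22 and 71 were the lowest. The log2 fold change of Col4a1 was -0.061 ± 0.10, or 0.959-fold, with an interval from 0.826 to 1.11, and that of Col4a2 was -0.060 ± 0.098. Col4a5 averaged 34.6 ± 4.33 CPM in LC1 knockouts and 35.6 ± 1.16 CPM in LC1 wild types (SD, n = 3 each). Col4a6 averaged 14.2 ± 0.283 CPM in LC1 knockouts and 14.0 ± 1.19 CPM in LC1 wild types. Their log2 fold changes were -0.041 ± 0.082 and 0.013 ± 0.099. For the scarce Col4a3 and Col4a4 the values were 0.029 ± 0.35 and 0.028 ± 0.24.

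The smallest p-values of the LC1 comparison belonged to 4 low to moderate collagens, all lower in knockouts. At an unadjusted p under 0.05 these 4 of 42 collagens stood against 2.09% of all genes, and against 1.42% for lower genes alone. Col16a1, a FACIT collagen, had 13.2, 12.2 and 9.79 CPM in LC1 knockouts, against 16.3, 15.0 and 11.8 CPM in LC1 wild types. Its groups overlapped, and its log2 fold change was -0.29 ± 0.13 (edgeR, unadjusted p = 0.0338). Col23a1, a transmembrane collagen, had 29.1, 24.1 and 23.7 CPM in LC1 knockouts, against 30.5, 29.5 and 27.5 CPM in LC1 wild types. Only knockout 7 lay within the wild types, and the log2 fold change was -0.19 ± 0.083 (edgeR, unadjusted p = 0.0365). Col5a3, the minor type V chain, had 0.747, 1.01 and 0.757 CPM in LC1 knockouts, against 1.19, 1.58 and 1.11 CPM in LC1 wild types. Its groups did not overlap, and its log2 fold change of -0.59 ± 0.27 rested on 14 to 30 counts per library (edgeR, unadjusted p = 0.0424). Col9a3, a type IX chain whose exons overlap those of Tcfl5 on the other strand, had 19.4, 19.7 and 19.3 CPM in LC1 knockouts, against 22.0, 24.2 and 20.2 CPM in LC1 wild types. These groups did not overlap either, and the log2 fold change was -0.19 ± 0.086 (edgeR, unadjusted p = 0.0465). Col5a3, Col24a1 and Col9a3 were the 3 of 42 collagens whose knockouts all lay below all wild types, against 3.81% of all genes, and none had its knockouts all above, against 3.36%. An exact permutation test of 3 against 3 gives 0.1 for each of the 3 genes, the smallest p it can give. Groups that do not overlap always give this value, so the test adds nothing to how these genes were picked.

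**Figure D3:**
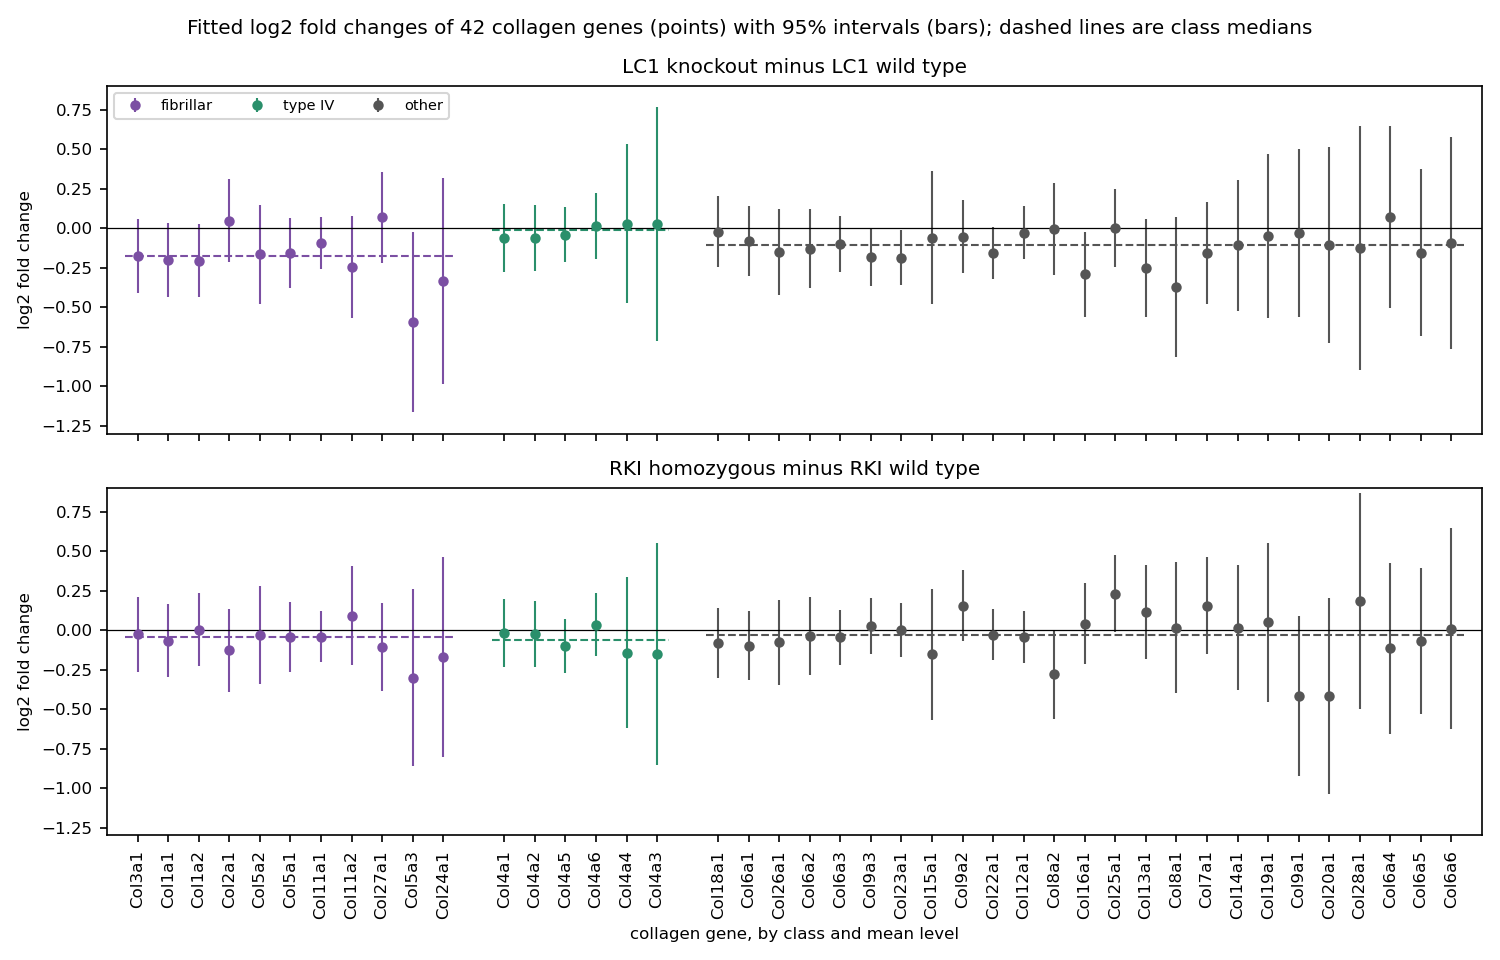
Fitted log2 fold changes of 42 collagen genes with 95% intervals, for LC1 knockouts minus LC1 wild types above and RKI homozygotes minus RKI wild types below, ordered by class and mean level. Dashed lines are class medians, which lie at -0.18 for fibrillar and -0.014 for type IV genes in the LC1 comparison and at -0.045 and -0.062 in the RKI comparison.

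The other abundant collagens of the LC1 line overlapped between groups. Col18a1 averaged 127 ± 19.4 CPM in LC1 knockouts and 129 ± 8.88 CPM in LC1 wild types (SD, n = 3 each), for a log2 fold change of -0.023 ± 0.10. Col6a1 averaged 46.6 ± 6.75 CPM in LC1 knockouts and 49.2 ± 4.59 CPM in LC1 wild types. The log2 fold changes of the type VI chains were -0.082 ± 0.10 for Col6a1, -0.13 ± 0.12 for Col6a2 and -0.10 ± 0.085 for Col6a3. That of Col26a1 was -0.15 ± 0.13.

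The 3 knockouts did not stand together in these genes, and the class values moved with single libraries. Summed over the 11 fibrillar genes, the libraries held 1402, 1104 and 1121 CPM in LC1 knockouts, against 1469, 1270.0 and 1334 CPM in LC1 wild types. Summed over the type IV genes they held 1108, 841 and 823 CPM in LC1 knockouts, against 948, 923 and 1015 CPM in LC1 wild types. Knockout 7 lay within the wild types in the fibrillar sum and above them in the type IV sum, and knockouts 22 and 71 were below all wild types in both. Knockout 71 was the lowest of the 6 libraries for 19 of the 42 collagens, and for 18.1% of all genes. Wild type 6 was the highest for 15 of the 42, and for 26.3% of all genes. It was the lowest for 5 of the 42, and for 23.2% of all genes. The fibrillar median of -0.18 became -0.31 without knockout 7, -0.091 without knockout 22 and -0.11 without wild type 6. The type IV median became -0.065 without knockout 7 and 0.018 without knockout 71. Without knockout 7, 13 of the collagens had an unadjusted p under 0.05 in edgeR, against 2.62% of all genes in that fit. There were 2 collagens without knockout 22 (2.49% of all genes), without knockout 71 (2.27%), without wild type 6 (1.33%) or without wild type 26 (2.77%). Without wild type 73 there were 5, against 4.42% of all genes.

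Marker lists of meninges and vessels were high and low in many of the same libraries. Summed over 13 meningeal fibroblast markers, the libraries held 404, 370.4 and 312 CPM in LC1 knockouts, against 462, 378 and 370.3 CPM in LC1 wild types. Knockout 71 was the lowest and wild type 6 the highest, and 12 of the 13 markers were below 0 in log2 fold change with a median of -0.15. Endothelial markers summed to 508, 414 and 414 CPM in LC1 knockouts, against 458, 442 and 451 CPM in LC1 wild types. As for type IV collagen, knockout 7 was the highest and knockouts 22 and 71 the lowest, with 8 of 10 markers below 0 and a median of -0.023. Pericyte markers summed to 483, 439.5 and 431.5 CPM in LC1 knockouts, against 486, 456 and 459 CPM in LC1 wild types. Here wild type 6 was the highest and knockouts 22 and 71 were the lowest. Of the 9 pericyte markers 6 were below 0, with a median of -0.052. All 6 choroid plexus markers were below 0 with a median of -0.17, as were all 6 of microglia with a median of -0.11. Of 8 markers of the embryonic brain itself 5 were below 0, with a median of -0.017. Over all genes tested 51.4% were below 0, with a median of -0.003. Wild type 6 was also the highest LC1 library in the summed choroid plexus, microglia and embryonic brain markers, at 870, 106 and 6552 CPM. No marker passed the threshold in either genotype comparison. The part of these tissues in the collagen values was not tested.

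**Figure D4:**
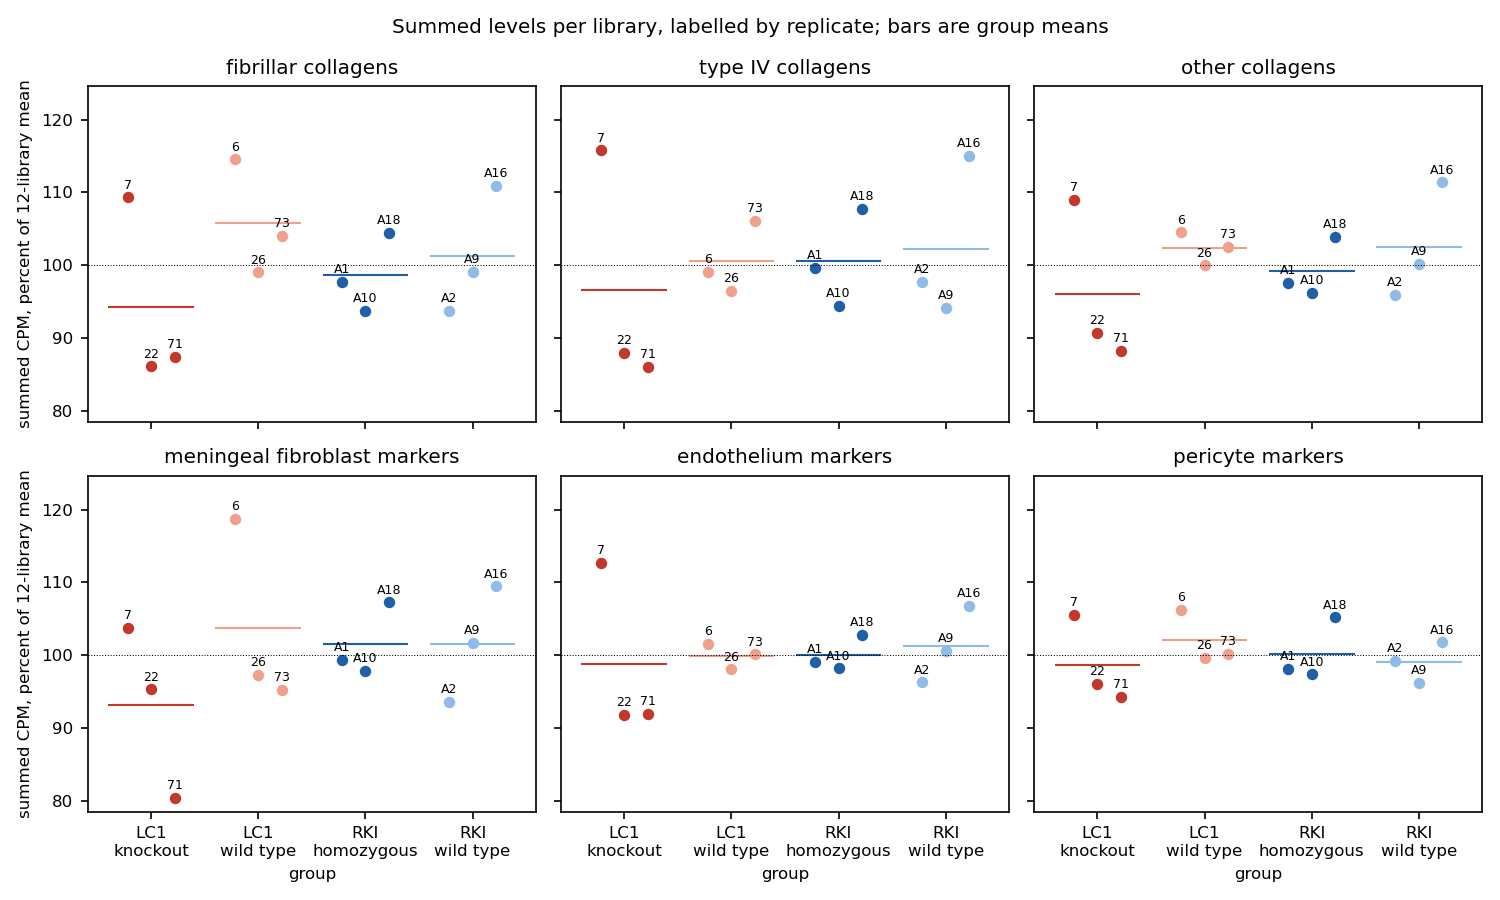
Summed CPM of 3 collagen classes and 3 marker lists in each library, as a percentage of the mean of 12 libraries, with points labelled by replicate and bars at group means. Knockouts 22 and 71 lie below all LC1 wild types in the 3 collagen classes, with fibrillar sums of 1104 and 1121 CPM, and RKI wild type A16 stands highest of its line in these classes.

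In RKI homozygotes most collagens had fitted values close to those of their wild types, and again none passed the threshold. No gene of 16002 had an adjusted p under 0.05 in edgeR (0.0%), and 307 had an unadjusted p under 0.05, of which none was a collagen (1.92% of all genes). The log2 fold change was below 0 for 28 of 42 collagens, against 49.4% of all genes. The class medians were -0.045 for fibrillar, -0.062 for type IV and -0.030 for other types. Col1a1 had 266, 231 and 292 CPM in RKI homozygotes, against 251, 299 and 275 CPM in RKI wild types, a log2 fold change of -0.066 ± 0.11. Col1a2 averaged 267 ± 23.6 CPM in RKI homozygotes and 267 ± 22.4 CPM in RKI wild types (SD, n = 3 each). Col3a1 had 444, 439 and 469 CPM in RKI homozygotes, against 421, 419 and 541 CPM in RKI wild types, a log2 fold change of -0.028 ± 0.11. The groups overlapped for all of these fibrillar genes, and wild type A16 was the highest for Col3a1. Col2a1 had 72.0, 72.2 and 60.5 CPM in RKI homozygotes, against 84.4, 62.5 and 77.6 CPM in RKI wild types, a log2 fold change of -0.13 ± 0.12.

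Wild type A16 was also the highest of the 6 RKI libraries for each of the 6 type IV genes. Col4a1 had 532, 509 and 579 CPM in RKI homozygotes, against 519.7, 499 and 622 CPM in RKI wild types, a log2 fold change of -0.017 ± 0.10, or 0.988-fold, with an interval from 0.851 to 1.15. Col4a2 had 369.5, 343 and 396 CPM in RKI homozygotes, against 360.2, 349 and 418 CPM in RKI wild types, a log2 fold change of -0.025 ± 0.098. All 3 homozygotes lay between wild types A9 and A16 for Col4a1, and homozygote A10 lay below all wild types for Col4a2. The X-linked Col4a5 and Col4a6 had log2 fold changes of -0.100 ± 0.081 and 0.033 ± 0.095, and the scarce Col4a4 and Col4a3 had -0.14 ± 0.23 and -0.15 ± 0.33. A16 was the highest library for 19 of all 42 collagens, and for 28.0% of all genes. It was the lowest for 6 of the 42, and for 27.2% of all genes. Without it the type IV median was 0.035 and the fibrillar median 0.010, so both changed sign. The type IV median also changed sign without homozygote A1, to 0.026. Endothelial markers summed to 446, 443 and 463 CPM in RKI homozygotes, against 434, 454 and 482 CPM in RKI wild types, with A16 again the highest. Of the 10 markers 8 were below 0, with a median of -0.067. Meningeal fibroblast markers summed to 386, 380.5 and 417 CPM in RKI homozygotes, against 364, 395 and 426 CPM in RKI wild types, with 5 of 13 below 0. Pericyte markers summed to 449, 445.5 and 481 CPM in RKI homozygotes, against 454, 440 and 466 CPM in RKI wild types. Homozygote A18, not A16, was the highest for these. Pericyte markers were below 0 for 4 of 9 and choroid plexus markers for 5 of 6, against 49.4% of all genes. Microglial markers were below 0 for 2 of 6 and markers of the embryonic brain for 4 of 8. The part of these cells in the collagen values was not tested.

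The smallest p-values of the RKI comparison were those of Col8a2, Col25a1 and Col9a1. Col8a2, a short-chain network collagen, had 8.79, 7.32 and 8.62 CPM in RKI homozygotes, against 9.77, 10.5 and 9.82 CPM in RKI wild types. Its groups did not overlap, and its log2 fold change was -0.28 ± 0.13 (edgeR, unadjusted p = 0.0512). Col25a1, a transmembrane collagen of neurons found in amyloid plaques, had 17.6, 18.9 and 14.0 CPM in RKI homozygotes, against 14.2, 16.8 and 12.1 CPM in RKI wild types. Its groups overlapped at a log2 fold change of 0.23 ± 0.12 (edgeR, unadjusted p = 0.0618). Col9a1 had 1.43, 0.836 and 0.954 CPM in RKI homozygotes, against 1.32, 1.17 and 1.80 CPM in RKI wild types, a log2 fold change of -0.42 ± 0.24 (edgeR, unadjusted p = 0.102). It had 17 to 40 counts per library. Col8a2 and Col20a1, a FACIT collagen, were the 2 of 42 collagens with all homozygotes below all wild types, against 3.07% of all genes. Col7a1, the anchoring fibril collagen of skin, was the single one with all homozygotes above, against 2.59%. Among the other abundant genes, Col18a1 had a log2 fold change of -0.081 ± 0.10, Col6a1 -0.098 ± 0.10, Col6a2 -0.037 ± 0.12, Col6a3 -0.047 ± 0.083, Col26a1 -0.077 ± 0.13 and Col9a3 0.025 ± 0.085.

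The effects of the knock-in and of the deletion were not shown to differ for any collagen. The difference, RKI effect minus LC1 effect, had an adjusted p under 0.05 for 0 of 16002 genes in edgeR (0.0%), and 388 genes had an unadjusted p under 0.05. No collagen was among the 388, which were 2.42% of all genes. Without LC1 knockout 7 there were 6 collagens, against 2.21% of all genes in that fit. The smallest p-values belonged to Col16a1 with a difference of 0.33 ± 0.18 (edgeR, unadjusted p = 0.0758), Col13a1 with 0.37 ± 0.20 and Col9a3 with 0.21 ± 0.12 on the log2 scale. Class medians of this difference were 0.14 for fibrillar, -0.019 for type IV and 0.096 for other types.

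Between the wild types of both lines the collagens were close, with 0 of 42 past the threshold and 2 of 16002 genes, or 0.0125%, called by edgeR. Line, litter and handling cannot be told apart in this comparison, and it rests on a term for sex since RKI wild types A2 and A16 were male. The fold changes are adjusted for sex, whereas the CPM values and the overlap of groups are not, so the 2 can differ. Col22a1, a FACIT collagen of muscle and tendon junctions, had 30.7, 29.6 and 28.6 CPM in RKI wild types, against 34.1, 31.6 and 35.2 CPM in LC1 wild types. Its groups did not overlap (against 4.23% of genes lower in this way), with a log2 fold change of -0.20 ± 0.095 (edgeR, unadjusted p = 0.048), and it was the single collagen among the 3.89% of genes with an unadjusted p under 0.05. Col6a5, a type VI chain, had 1.25, 1.46 and 1.22 CPM in RKI wild types, against 1.19, 0.874 and 1.06 CPM in LC1 wild types, a log2 fold change of 0.57 ± 0.28 (edgeR, unadjusted p = 0.0547). It was the single collagen with all RKI wild types above all LC1 wild types, against 3.36% of all genes. Col13a1, a transmembrane collagen of neuromuscular synapses, had 5.88, 5.64 and 5.99 CPM in RKI wild types, against 7.49, 6.44 and 5.64 CPM in LC1 wild types, a log2 fold change of -0.35 ± 0.18. All 6 type VI genes were above 0, with a median of 0.10. Over all genes tested 7659 of 16002 were above 0, and the median was -0.0068. The medians were -0.100 for fibrillar, -0.056 for type IV and -0.042 for other types, and without the sex term that of type IV was 0.074. The type IV median was also above 0 without LC1 wild type 73, at 0.024, or without RKI wild type A9, at 0.032. That of other types became -0.0024 without homozygote A10 and -0.087 without wild type A9. In the fits without A9 or A10 only 1 female of the RKI line was left, and the sex term rested on that embryo.

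Male against female, a comparison within the RKI line of 4 males and 2 females, also called no collagen, against 8 of 16002 genes (0.05%). The X-linked Col4a5 had a log2 fold change of 0.15 ± 0.086 in males (edgeR, unadjusted p = 0.0949), and the X-linked Col4a6 0.027 ± 0.10. At an unadjusted p under 0.05 there were 3 collagens, all lower in males, against 5.18% of all genes and 2.1% for lower genes alone. Col25a1 had a log2 fold change of -0.30 ± 0.12 (edgeR, unadjusted p = 0.0233), Col11a2 -0.38 ± 0.16 and Col8a1 -0.48 ± 0.20. Col8a1 had 4.55, 5.95 and 3.36 CPM in RKI homozygotes, against 4.40, 5.31 and 3.83 CPM in RKI wild types, and the female of each group was the highest. Without homozygote A18 no collagen had an unadjusted p under 0.05 in edgeR for this comparison, against 5.52% of all genes in that fit. There were 5 such collagens without wild type A2 (6.3% of all genes) and 5 without LC1 knockout 7 (4.8%). Without wild type A9 or without homozygote A10 only 1 female of the line was left, so no counts are given for those fits.

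At the level of transcripts, 96 of 199 listed collagen transcripts passed the filter and none was called in the genotype comparisons or between the wild types. The background over 47772 transcripts was 0.0% for LC1, 0.0% for RKI and 0.00209% between wild types. At an unadjusted p under 0.05 edgeR found 0 collagen transcripts for LC1, where 2.97% of all transcripts passed, and 4 for RKI, where 2.45% passed. Those 4 were Col13a1-004, Col13a1-005, Col15a1-009 and Col9a3-005, a form with a retained intron. Col9a3-005 averaged 3.06 ± 1.27 RPKM in RKI homozygotes and 4.65 ± 1.17 RPKM in RKI wild types (SD, n = 3 each), for a log2 fold change of -0.64 ± 0.27 (adjusted p of 1.0 in edgeR). Between the wild types the single collagen transcript was Col9a3-004, where 3.73% of all transcripts passed. The estimates carry no model of the uncertainty with which reads were divided between forms.

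Genes that make, process, bind or accompany collagen were listed by role, and none of them passed the threshold in either genotype comparison. Of all genes tested, 51.4% were lower in LC1 knockouts and 49.4% in RKI homozygotes. The directions of the lists were not tested, and the genes of a list share their libraries. Of 19 genes of synthesis and folding in the endoplasmic reticulum, 14 were lower in LC1 knockouts, with a median log2 fold change of -0.049, and 13 in RKI homozygotes. Plod3, a lysyl hydroxylase, had 0.11 ± 0.073 and Crtap, a subunit of the prolyl 3-hydroxylase complex, -0.12 ± 0.086 in the LC1 comparison. Tmem38b, an ion channel of this compartment, had -0.19 ± 0.15 and P4ha3, a prolyl hydroxylase, -0.16 ± 0.14 in the RKI comparison. Of 20 genes of processing, crosslinking and turnover, 12 were lower in LC1 knockouts and 9 in RKI homozygotes. The lysyl oxidase Loxl4, at a mean of only 0.481 CPM, had -1.09 ± 0.43, and Adamts3, a protease that trims procollagen, 0.19 ± 0.082 for LC1. For RKI, Loxl1, another lysyl oxidase, had -0.21 ± 0.070 (edgeR, unadjusted p = 0.00833) and the procollagen protease Tll1 0.33 ± 0.12.

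Of 8 collagen receptors 5 were lower in LC1 knockouts and 7 in RKI homozygotes. Adgrg1, the receptor of type III collagen on cortical progenitors, had a log2 fold change of 0.14 ± 0.055 in LC1 knockouts (edgeR, unadjusted p = 0.0211), and Ddr2, a receptor kinase for fibrillar collagen, -0.20 ± 0.091. For RKI the smallest p-values were those of the integrin chains Itga2, with -0.24 ± 0.14, and Itga11, with -0.17 ± 0.16. Of 12 other basement membrane proteins 10 were lower in LC1 knockouts and 10 in RKI homozygotes. Their median log2 fold changes were -0.037 and -0.046, and over all genes 51.4% and 49.4% were lower. The laminin chain Lamb2 had -0.099 ± 0.064 and Pxdn, the peroxidase that crosslinks type IV collagen, 0.11 ± 0.074 in LC1 knockouts. The laminin chain Lama5 had -0.21 ± 0.084 and Hspg2, which encodes perlecan, -0.16 ± 0.098 in RKI homozygotes. Of 9 small proteoglycans and other fibril partners, 6 were lower in LC1 knockouts and 5 in RKI homozygotes. Ogn and Dcn, fibril-binding proteoglycans that also stand in the list of meningeal markers, had -0.26 ± 0.14 and -0.24 ± 0.13 for LC1. Fbln1, a fibulin, had -0.11 ± 0.081 and the proteoglycan Fmod 0.24 ± 0.19 for RKI.

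The authors' deposited tables of their own gene comparisons were read beside these fits. Of 42 collagens in both, the authors' deposited table gave the smaller unadjusted p for 25 in LC1 and for 26 in RKI, and the larger for 17 and 16. In the authors' deposited table for LC1, 9 of 44 collagens had an unadjusted p under 0.05, all lower in knockouts, among 1117 of 25842 genes or 4.32%. The authors' deposited table lists Col1a2 at a log2 fold change of -0.21 (p = 0.000505, adjusted p of 0.559), Col1a1 at -0.20 (p = 0.000839) and Col3a1 at -0.18 (p = 0.00106). In the edgeR fit here Col1a2, Col1a1 and Col3a1 had similar fold changes but none had an unadjusted p under 0.05. The other 6 in the authors' deposited table were Col16a1, Col5a2, Col23a1, Col5a1, Col8a1 and Col9a3. In the authors' deposited table for RKI, 2 of 44 collagens had an unadjusted p under 0.05, Col25a1 at 0.23 and Col8a2 at -0.28, among 722 of 26194 genes or 2.76%. Checked against the counts per library, the authors' deposited RKI values ran as wild type minus homozygous, and were turned here to homozygous minus wild type. No collagen passed an adjusted p of 0.05 in either of the authors' deposited tables, and the sources used here do not give the model behind them.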

How the data were processed

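The authors deposited gene counts, transcript estimates, RPKM and tables of their own comparisons, and the reads were not reprocessed. The submitters' processing notes name limma and edgeR, the aligner STAR 2.0.4b, the Subread package and its counter featureCounts 1.4.5. The genome build, annotation, strand setting, counting options and transcript tool are not stated in these sources. The authors' gene counts were whole reads per gene, and of 41264 rows the 574 that repeated a gene held equal counts and were used once. The authors' transcript values are estimated counts and were rounded here. The deposited RPKM divides each count by library total and gene length. The authors' comparison tables hold log2 expression, log2 fold changes and p-values, of which the fold changes and p-values are reported, with their direction checked against the counts. Opposite-strand exon overlaps make counts of Col4a1, Col4a2, Col4a3, Col5a1, Col6a4, Col6a6, Col9a3, Col10a1, Col15a1 and Col22a1 uncertain, since the use of strand is not stated. Exons of Col3a1, Col7a1 and Col20a1 overlap those of other genes on the same strand in GENCODE M21, where strand cannot separate the reads.

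Counts were fitted in edgeR 4.0.16 (R 4.3.3) with TMM scaling, filterByExpr by group, robust quasi-likelihood dispersion, 4 group means and a sex term over 12 libraries (7 residual degrees of freedom, biological coefficient of variation 6.94%). P-values were adjusted by Benjamini and Hochberg over all 16002 genes or 47772 transcripts with a threshold of 0.05. Standard errors came from the fold change and its F statistic. Exact permutation tests, two-sided, used log2 CPM with a prior count of 2. The fit was tested on simulated data. P-values weigh differences against the spread between these embryos only, moderated across genes. They treat all embryos as independent, although the litters are not named. Alternatives were DESeq2 1.42.0 with its size factors or Wald test, limma-voom (limma 3.58.1), no low-count filter, 1 line alone, no sex term, Col15a1 and Col18a1 counted with type IV, and each library left out. Members, classes, pathway and marker lists were chosen with earlier results of these data known. Genes were named for level (4 fibrillar, all 6 type IV, 6 other) and for the 3 smallest p-values of each comparison, and for 2 per pathway list. Others were named after their values were seen. Promoter windows, 250 bases before to 50 after each start, came from RefSeq.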

Additional observations from a re-analysis of the deposited data

How the results depend on the processing

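No collagen gene or transcript was called under any alternative run. The smallest adjusted p of a collagen gene in the genotype comparisons was 0.570 (Col2a1, RKI, edgeR without wild type A9). Without A9 or without A10, 1 female of the RKI line was left, and the sex term rested on that embryo. With the fits without A9 or A10 set aside, the smallest adjusted p in all 5 comparisons was 0.5535 (Col8a1, males against females, edgeR without the low-count filter). For transcripts it was 0.111 in DESeq2 (a Col9a3 form, RKI against LC1 wild types), which over all transcripts called 191 for LC1, 132 for RKI, 303 between the wild types, 165 for the difference of effects and 445 between the sexes, against edgeR's 0, 0, 1, 0 and 3 in the same order. Without the low-count filter edgeR called 4 of all genes for LC1, 26 for RKI, 28 between the wild types, 17 for the difference of effects and 45 between the sexes, and 8 collagens had an unadjusted p under 0.05 for LC1 (2.39% of all genes in that fit), 2 for RKI (2.71%), 2 for the difference of effects (2.98%) and 7 between the sexes (5.15%). DESeq2's Wald test and edgeR on the 6 LC1 libraries alone each found 2 such collagens for LC1 (1.14% and 2.13% of all genes). The type IV median between the wild types was 0.074 with no sex term. With 1 library other than A9 or A10 left out, all genes called ran from 0 to 1 for RKI and 1 to 2 between the wild types. They ran from 0 to 1 for the difference of effects. Collagens with an unadjusted p under 0.05 in edgeR then ran from 2 to 13 for LC1, against 1.33% to 4.42% of all genes. For RKI they ran from 0 to 2 (1.15% to 3.1%). They ran from 0 to 2 between the wild types (3.12% to 7.33%). For the difference of effects they ran from 0 to 6 (6 without knockout 7), against 1.67% to 4.04%. Between the sexes they ran from 0 to 5 in the fits that kept A9 and A10 (3.82% to 6.3%). The fibrillar LC1 median ran from -0.31 to -0.091. The ranges of log2 fold changes given next cover each library left out, A9 and A10 included. Log2 fold changes, with no call at stake, changed sign in LC1 over the ranges -0.15 to 0.063 for Col18a1, -0.046 to 0.17 for Col2a1, -0.22 to 0.015 for Col4a1, -0.22 to 0.027 for Col4a2, -0.19 to 0.19 for Col4a3, -0.065 to 0.12 for Col4a4, -0.15 to 0.020 for Col4a5 and -0.047 to 0.079 for Col4a6. In RKI the ranges were -0.16 to 0.033 for Col18a1, -0.15 to 0.087 for Col1a1, -0.084 to 0.11 for Col1a2, -0.21 to 0.099 for Col26a1, -0.11 to 0.097 for Col3a1, -0.082 to 0.067 for Col4a1, -0.085 to 0.039 for Col4a2, -0.58 to 0.077 for Col4a3, -0.44 to 0.050 for Col4a4, -0.043 to 0.13 for Col4a6, -0.14 to 0.033 for Col6a2, -0.14 to 0.028 for Col6a3 and -0.028 to 0.077 for Col9a3. Col1a2 in RKI was also -0.0003 without the filter and -0.0021 with the 6 RKI libraries alone. The cause was not tested. No paired analysis was possible because mutants and wild types share no replicate numbers and the labels name no litters. Depth limits the scarcest collagens tested, with 11 to 25 counts per library for Col4a3 and 11 to 30 for Col24a1.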
